A study of Homo sapiens with 22 samples.

Results

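The activity of luciferase reporters carrying short sequence tags was compared between A549 and H520 cells under vehicle. A549 is a human lung adenocarcinoma line and H520 a human lung squamous cell carcinoma line. The 5 A549 and 5 H520 DMSO transfections entered the comparison, and a tag was a member if it had at least 100 counts in both input libraries. This held for 211385 of the 238017 tags listed in any of the 22 libraries, or 88.8%. DMSO is the solvent in which the other arm of the study received 10 µM benzo(a)pyrene (BaP), for 18 h in A549 and 42 h in H520. The duration of the DMSO treatment is not stated separately. Both groups received tagged constructs and the same solvent, and no knockout, transgene or selection is named. The groups differ in the cell line, and may also differ in time and in the version of the construct pool.

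Each line has 1 input library of the construct DNA, and the labels give the pair of inputs different version marks without saying how they differ. Activity was therefore computed with each line's own input and again with the H520 input for both lines. TPM, the deposited unit, is a tag's count relative to the total of its library. Activity is log2 of RNA TPM over input TPM, each with 0.5 added, after subtracting the library's median over the members. A value of 0 is the typical tag of the pool, and a value of 1 or more, at least 2-fold above it, is called active. A difference was held if it was called in the same direction under both denominators. The files hold reporter tags and no endogenous genes, so the cell lines could not be checked against markers. Only pooled RNA and construct DNA were read, so the number of constructs per cell and the RNA made per construct cannot be told apart. Several tags can mark the same tested fragment, and a table joining tags to fragments was not used here.

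In such an assay a DNA fragment placed beside a reporter gene raises or lowers transcription through the proteins that bind it, and the tag within the transcript identifies the construct. The proteins present differ between cell types, so the same construct can be active in one line and inactive in another. Tags can also differ on their own account, because they are transcribed and amplified with the reporter. As background to the sequences shown here, the bZIP proteins of the C/EBP and ATF families bind as dimers, and TTGCGTCA joins the part of a site read by C/EBP to the part read by ATF. No value here measures either protein.

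The tags that carry the line difference are shown first, as deposited, with the 12 variable bases in capitals and the 3 constant bases in lower case. Which strand of the transcript the letters follow was not stated in the labels or headers. P tags were higher in A549 and below the typical tag of the pool in H520, R tags were higher in H520 and at pool level in A549, and S tags were higher in H520 and active in both lines. Q1 was higher in A549 and active in both, U3 and U7 were called with only the H520 input, and V2 was active in both lines with no call.
P1: TACTATGATTTGggc
P2: TATAGATACTCTggc
P3: TAGAATCTTGCTggc
P4: GTATTGATCGGTggc
Q1: CCCAACCCGATGggc
R1: GTCAGCGTAAGGggc
R2: AATGAATGAATCggc
R3: AAGCGTAGCATGggc
R4: GATTGCGTAATAggc
S1: GCGTTACGAAACggc
S2: GCCATTTCGTCCggc
S3: CGCTTACCTACTggc
S4: CGCAGTCGATAAggc
U3: GGTCGTTATAAGggc
U7: AGTTAACGTTACggc
V2: AATGCGTTGATCggc

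The next set holds the 10-letter word GATTGCGTCA, in capitals, which occurred in 10 tags. Below 3 of them stand the neighbours of W6 that differ by 1 letter, with the substituted letter in capitals, to show which letters the H520 activity went with. Positions are counted from 1 at the first deposited base, with the letter of W6 first.
W1: GATTGCGTCAtaggc
W4: cGATTGCGTCAgggc
W6: tGATTGCGTCAgggc
W6 T1A: Agattgcgtcagggc
W6 G12T: tgattgcgtcaTggc
W6 T4A: tgaAtgcgtcagggc
W6 T5A: tgatAgcgtcagggc
W6 G6T: tgattTcgtcagggc
W6 T9C: tgattgcgCcagggc
W6 C10T: tgattgcgtTagggc
W6 A11C: tgattgcgtcCgggc
W6 A11G: tgattgcgtcGgggc
W6 A11T: tgattgcgtcTgggc

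The last set shows tags that end in CATGCCCGGGC, CTTGCCCGGGC or TTTGCCCGGGC, in capitals, and again 1-letter neighbours with the substituted letter in capitals. The final 3 letters of these ends are the constant bases.
X1: gaagCATGCCCGGGC
X1 G1C: Caagcatgcccgggc
X1 C11G: gaagcatgccGgggc
X3: cggtCATGCCCGGGC
X3 C10T: cggtcatgcTcgggc
Y1: acgaCTTGCCCGGGC
Y1 C10T: acgacttgcTcgggc
Y2: taaaCTTGCCCGGGC
Y2 C10T: taaacttgcTcgggc
Z2: gaacTTTGCCCGGGC
Z2 G1C: Caactttgcccgggc
Z2 G8A: gaactttAcccgggc

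Library totals were 204.6 to 349.9 M counts in A549 and 179.3 to 331.7 M in H520, with 333.5 M in the A549 input and 265.8 M in the H520 input. The members held 99.6% to 99.7% of each library's counts, and their median count was 648 to 1187 in the RNA libraries. Replicate libraries of 1 line differed beyond counting noise in every pair, with chi-square per degree of freedom from 5.44 to 81.9, so none was a duplicate. Across tags, Pearson's r of activity was 0.795 to 0.960 between replicates of 1 line and 0.463 to 0.595 over the 25 pairs of an A549 and an H520 library, as a description over tags that share inputs. The labels count transfections and do not say whether these came from separate cultures, so p-values measure the spread between these transfections only.

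More tags were active in A549 than in H520. The share of members at 1 or more was 1.52% ± 0.14 (SD over 5 transfections) in A549 with its own input and 1.05% ± 0.04 (SD, n = 5) in H520. The A549 libraries ran from 1.29% to 1.66% and the H520 libraries from 0.995% to 1.12%, so the lines did not overlap. With the H520 input for both lines the A549 share was 1.87% ± 0.14 (SD, n = 5), again without overlap. By the mean of the transfections, 2878 members were active in A549 under both denominators, 2179 in H520, and 1383 in both lines. Most tags differed little: with own inputs, 95% of members lay between -0.49 and 0.59 in the log2 difference, A549 minus H520.

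With own inputs, edgeR's quasi-likelihood test against a 2-fold threshold called 507 members higher in A549 and 320 higher in H520 at an adjusted p under 0.05. Over all 222578 tags tested the background was 0.281% higher in A549 and 0.247% higher in H520. With the H520 input for both lines, 1469 members were called higher in A549 and 1001 higher in H520, beside a background of 0.874% and 0.815%. Held under both denominators were 473 members higher in A549 and 268 higher in H520, where the background was 0.266% and 0.223%, and no member was called in opposite directions. Among members alone the held shares were 0.224% and 0.127%, so the H520-higher share was below the background, and 268 of the 496 held H520-higher tags over all tested were members. Without centring, the H520-input calls were 1224 higher in A549 and 1627 higher in H520. Both held counts depended on the libraries and the tool: without A549 transfection 2 there were 896 held A549-higher members, without A549 transfections 2 and 3 there were 1672, and limma held 78 of the H520-higher members.

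The inputs themselves moved with the calls that did not hold. The A549 to H520 input ratio had a median of -0.01 on the log2 scale over all members, with an SD of 0.30. Among the tags called with the H520 input only, it was 0.54 in the 996 A549-higher tags and -0.70 in the 733 H520-higher tags. It was -0.37 in the 34 tags called A549-higher with own inputs only and 0.27 in the 52 called H520-higher. In both sets the sign was the one that the choice of denominator gives. Among held tags the medians were 0.19 and -0.16. Each input is 1 library without a replicate, its error is not in any p-value, and its part in the calls was not tested.

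The A549-higher tags were mostly ones that were under 0.5 in H520, here called pool level or below. Of the 473 held tags, 432 had an H520 activity under 0.5, and 296 of these lay below 0. Another 25 were between 0.5 and 1 in H520, and 16, or 3.38%, were active there. The median difference was 2.08 on the log2 scale with own inputs and 2.22 with the H520 input. In these 432 tags the library medians were 1.93 to 2.23 in A549 with its own input and -0.13 to -0.09 in H520. These medians were chosen by the call and are descriptions.

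Within the 296 held tags below 0 in H520, A549 activity fell into separate ranges. The call chose these tags and passes less readily where A549 transfections spread widely, so the ranges describe held tags only. Own-input A549 activity was under 3 in 204 tags, from 3 to under 4 in 3, and at 4 or more in 89. The 89 tags at 4 or more had a median of 4.54 in A549, from 4.20 to 4.94, and of -0.30 in H520. Their median in the A549 transfections was 4.80, 4.49, 4.39, 4.67 and 4.42, and in the H520 transfections -0.32, -0.33, -0.31, -0.28 and -0.30. They thus stood 28.8-fold higher in A549 with own inputs, and 54.7-fold with the H520 input, on the log2(TPM + 0.5) scale. Their input ratio also stood apart, with a median log2 of 0.89 against -0.01 over all members, and its part in the result was not tested. The 204 tags under 3 had a median of 1.79 in A549, a difference of 1.99 and an input ratio of 0.06. The 197 members at 4 or more in A549 therefore included 89 that H520 left below 0. H520 had 52 members at 4 or more, and the 9 of them that were held H520-higher were active in A549 too.

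P1 led the tags that were high in A549 and under 0.5 in H520. Its RNA stood at 182.6, 144.9, 157.6, 189.7 and 139.6 TPM in A549 transfections 1 to 5 and at 1.46, 1.64, 1.59, 1.53 and 1.44 TPM in H520. Every A549 library was far above every H520 library, and no value lay between. Activity was 4.70 ± 0.21 (SD over 5 transfections) in A549 and -0.80 ± 0.06 (SD, n = 5) in H520. A549 minus H520 was 5.49 ± 0.10 (SE) with own inputs and 6.45 ± 0.10 (SE) with the H520 input, with adjusted p from edgeR of 2.49e-22 and 1.08e-23. In H520 it lay below the typical tag, under the 0.5% quantile of all members of -0.59. Its A549 input TPM was 1.92 times its H520 input TPM.

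P2, P3 and P4 followed the same course. P2 had 485.9, 378.7, 443.7, 514.1 and 359.2 TPM in A549 and 5.09, 4.68, 4.16, 3.97 and 4.32 TPM in H520. P3 had 155.2, 128.7, 146.9, 159.8 and 119.3 TPM in A549 against 2.56, 2.44, 2.18, 2.20 and 2.99 in H520. For P4 the values were 410.03, 335.6, 363.8, 409.02 and 322.6 TPM and 5.25, 4.68, 4.28, 4.64 and 4.44 TPM. None of the 3 overlapped between lines. Their own-input differences were 5.47, 5.38 and 5.38, and with the H520 input 6.58, 5.71 and 6.28. The P tags kept their calls in each of the 10 fits that left out 1 transfection. P tags are the top 4 of 362 eligible tags by the smaller of their differences.

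Tags higher in A549 and above pool level in H520 varied more among the A549 transfections. In the 41 A549-higher held tags at 0.5 or more in H520, the median SD over A549 transfections was 0.57, against 0.18 in the 89 strong tags, and the lowest A549 value was in transfection 2 or 3 in 37 of them. That was so in 66 of the 89 and in 112239 of all 211385 members. Q1, the first of 14 eligible tags that were active in both lines, had 201.6, 78.8, 73.8, 180.4 and 205.2 TPM in A549 and 6.40, 8.18, 9.99, 10.2 and 7.56 TPM in H520. Transfections 2 and 3 were low among the A549 libraries but still above every H520 library. The difference was 2.71 ± 0.37 (SE) with own inputs (edgeR adjusted p = 0.036) and 4.05 ± 0.37 (SE) with the H520 input (edgeR adjusted p = 0.00124). Its own-input call was lost in 8 of 10 fits that left out 1 transfection, where the adjusted p from edgeR reached 0.135, and its H520-input call in none. With a replicate block both calls were lost, at an adjusted p from edgeR of 0.544 and 0.0619, and at a pseudocount of 0.1 the own-input call was lost, at 0.0587.

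Transfections 2 and 3 also stood low in A549-higher tags that did not pass. Without overlap between lines and at least 2-fold apart under both denominators were 1588 A549-higher and 326 H520-higher members, of which 466 and 236 were held. Over all tags tested, 0.72% and 0.15% were apart in this way. Among the 1122 A549-higher tags of this kind that were not held, the median SD over A549 transfections was 0.52, a spread that failing the test in part selects. Transfection 2 or 3 was the lowest A549 library in 1094 of them, against 112239 of all 211385 members.

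Many of the H520-higher tags had activity in both lines. Of the 268 held, 116, or 43.3%, were active in A549 by at least 1 denominator, and 86 by both. Another 59 lay between 0.5 and 1 in A549, and 93 were under 0.5. The median difference was -1.33 with own inputs and -1.47 with the H520 input, both medians being set in part by the call. In H520, 240 of the 268 were active by its mean. Only 34 lay below 0 in A549 by both denominators.

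R1 was the leading tag that was high in H520 and at pool level in A549. It had 2.46, 3.36, 3.30, 2.18 and 2.18 TPM in A549 and 14.4, 15.5, 13.2, 17.04 and 15.3 TPM in H520. All H520 libraries were above all A549 libraries by several fold. Activity was 0.45 ± 0.21 (SD over 5 transfections) in A549 with its own input and 2.36 ± 0.14 (SD, n = 5) in H520. The difference was -1.90 ± 0.11 (SE) with own inputs and -2.18 ± 0.11 (SE) with the H520 input, with adjusted p from edgeR of 5.25e-05 and 6.48e-06. R2, R3 and R4 differed by -1.64, -1.61 and -1.60 with own inputs and by -1.79, -1.67 and -1.67 with the H520 input. R4 had 3.29, 2.99, 3.63, 4.06 and 2.96 TPM in A549 and 14.1, 12.3, 10.8, 12.6 and 15.1 TPM in H520, without overlap. These are the top 4 of 54 eligible tags, and R4 is the neighbour of W1 with C9A.

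S tags were active in both lines and higher in H520. S1 had 9.21, 10.3, 8.26, 9.09 and 8.44 TPM in A549 and 32.2, 37.1, 32.7, 40.7 and 34.1 TPM in H520, with every H520 library above every A549 library. Its activity was 1.20 ± 0.11 (SD over 5 transfections) in A549 with its own input and 3.12 ± 0.14 (SD, n = 5) in H520. S1 differed by -1.92 ± 0.08 (SE) with own inputs and -1.78 ± 0.08 (SE) with the H520 input, with adjusted p from edgeR of 2.37e-11 and 3.5e-10. S2, S3 and S4 differed by -1.77, -1.71 and -1.68 with own inputs and by -1.81, -1.73 and -1.86 with the H520 input, as the others of the top 4 of 85. No R or S tag lost a call in the 10 fits that left out 1 transfection.

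U3 shows what the choice of input did. It had 14303 counts in the A549 input and 817 in the H520 input, a ratio of 12.1 in TPM. Its RNA was 1184, 508.3, 484.1, 1228.2 and 1543.6 TPM in A549 and 44.9, 60.7, 67.5, 74.7 and 53.3 TPM in H520. The difference was 0.41 with own inputs and 4.02 with the H520 input, and only the latter was called. Its RNA, too, was lowest in A549 transfections 2 and 3. U7 went the other way, with an input ratio of 0.565, -1.24 with own inputs and -2.06 with the H520 input. V2 was among 824 eligible tags that were active in both lines and called by neither fit. It had 208.3, 224.7, 223.3, 211.01 and 176.6 TPM in A549 and 189.4, 206.5, 214.9, 209.7 and 193.7 TPM in H520, activity of 4.07 ± 0.10 and 4.05 ± 0.08 (SD, n = 5 each), and a difference of 0.02 ± 0.06 (SE) with own inputs. Its lines overlapped.

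The letters of the tags were then read. They were not used to choose the members, but the words described here were chosen after the values were seen, so their counts are descriptions without a test. Of the 4096 possible 6-letter words, 1881 occurred in at least 300 members. TTGCGT had the highest share of held H520-higher tags, 43 of 1048, and those 43 were 16.04% of the 268, against 0.496% of all members. On the A549-higher side the leading words were TTGCCC, with 16 of 445, and TGCCCG, with 24 of 724. Both sides lay above the 0.266% and 0.223% of tags held in the pool, as the choice of words fixes.

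The longer word TTGCGTCA was in 86 members, or 0.0407%, and 28 of these were held higher in H520 and 0 in A549. With limma, 13 were held. The median activity of the 86 tags was 1.41, 1.25, 1.19, 1.39 and 1.48 in the H520 transfections and 0.40, 0.35, 0.36, 0.36 and 0.35 in A549 with its own input. The lowest H520 median was thus well above the highest A549 median. The median difference was -0.91 with own inputs and -1.04 with the H520 input, and 83 of the 86 were lower in A549 under both. In H520, 52 of the 86 were active, and 4 were active in A549 under both denominators, a stricter rule than the one for H520. With own inputs alone, 9.30% to 16.3% of the 86 were at 1 or more in the A549 libraries. In the H520 libraries it was 54.7% to 65.1%. Read on the other strand, the word had a lower held share. As deposited, the reverse complement TGACGCAA was in 76 tags with 2 held and an H520 median of 0.28. That was 2.63% held H520-higher, against 0.127% of all members. In H520, 17.1% of the 76 were active, against 1.03% of all members. The variant TTGCGTAA was in 106 tags, with 11 held and an H520 median of 0.37. Its reverse complement TTACGCAA was in 138 with 0 held.

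With GA before it the word was held without exception: all 10 tags with GATTGCGTCA were H520-higher under both denominators. GA was chosen as the letters most often before the word in held H520-higher tags, which favours a high held share. Their H520 activity ran from 1.75 to 3.47 and their own-input A549 activity from 0.37 to 1.89. The largest adjusted p from edgeR among the 10 was 0.0104 with own inputs and 0.00782 with the H520 input. W4 had 26.3, 25.2, 25.7, 24.4 and 23.5 TPM in A549 and 96.9, 91.1, 87.03, 99.3 and 104.2 TPM in H520, and the lines did not overlap. W6, with another first letter, had 22.03, 23.2, 26.04, 23.5 and 21.5 TPM and 84.5, 78.9, 73.1, 83.96 and 94.9 TPM, which is nearly the same picture. By the start of TTGCGTCA in the tag, 3 of 26 were held from base 1, 1 of 20 from base 2, 5 of 13 from base 3, 13 of 14 from base 4 and 6 of 13 from base 5.

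The 1-letter neighbours of W6 divided by whether they kept the word. W6 itself had an H520 activity of 2.66 ± 0.14 (SD, n = 5) and an own-input A549 activity of 1.27 ± 0.08. The neighbours that kept GATTGCGTCA had 2.48 (T1A), 2.75 (T1C, which is W4) and 2.42 (G12T) in H520, and all were held. Changes inside the word gave lower H520 activity in all 8 cases, and none was held. Not all of the other tags with GATTGCGTCA went this way. In W4 the neighbour with G6T was still held, at an H520 activity of 1.81, as was W2 with A10G, at 1.11. Also held were the neighbours in which TTGCGTCA became TTGCGTAA. These were W1 with C9A, at 1.91, W5 and W7 with C10A, at 1.86 and 2.14, and W8 with C11A, at 1.20. W6 had no neighbour with that change. The other neighbours of these 10 tags that lost the word were not held. Around W6, H520 activity was 0.18 for T4A, 0.44 for T5A, 0.50 for T9C and 0.36 for A11C, close to pool level. It was 0.83 for A11G, 1.30 for A11T, 1.30 for C10T and 1.62 for G6T, which kept part of it. Own-input A549 activity of the 8 was below that of W6 too, from -0.20 for T4A to 0.78 for G6T. With the H520 input, A11T was above W6 in A549, at 1.29 against 0.97. Over all 86 tags with TTGCGTCA there were 204 such pairs that lost the word, and the neighbour was lower in H520 in 192. The H520 median went from 1.24 to 0.19, and 7 neighbours were held. A549 activity fell as well: the neighbour was lower with own input in 159 pairs, and under both denominators in 113. The own-input A549 median went from 0.32 to 0.04. The 164 ordered pairs that kept the word count each pair of tags in both orders. The neighbours' median of 1.24 is therefore fixed to equal that of the tags, and is no comparison.

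Among A549-higher tags a smaller set shared the end of the tag. Tags ending in TGCCCGGGC numbered 57, or 0.0270% of members, and 22 were held higher in A549 and 0 in H520. These 22 were 4.65% of the 473 held A549-higher tags, and no P or Q tag was among them. The letters at bases 5 and 6 sorted them: 8 of 9 were held with CA, 7 of 9 with CT, 6 of 13 with TT, 1 of 18 with GA and 0 of 8 with AT. The 31 tags with CA, CT or TT had library medians of 1.76, 1.64, 1.61, 1.56 and 1.44 in A549 with its own input and of 0.05, 0.04, 0.07, 0.05 and 0.11 in H520. None of the 31 was active in H520, where the highest tag reached 0.84, and 25 were active in A549 under both denominators. Their median difference was 1.56 with own inputs and 1.59 with the H520 input.

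Base 12 and the position in the tag went with the pattern as well. With A in place of G at base 12, 1 of 7 tags was held with CA, 2 of 8 with CT and 0 of 11 with TT, and the A549 medians were 0.53, 0.61 and 0.33. CATGCCC or CTTGCCC from base 5 was in 33 tags with 18 held, and from any other base in 197 tags with 0 held. GCCCGGGC with another letter than T before it was in 57 tags with 0 held. The held tags thus shared letters that run on into the constant end, and GCCCGGGCA, the reverse complement, was in 0 members.

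X1 had 21.2, 20.6, 19.8, 17.6 and 16.3 TPM in A549 and 3.52, 2.87, 3.46, 3.27 and 3.65 TPM in H520, every A549 library being above every H520 library. Its activity was 2.65 ± 0.13 (SD over 5 transfections) in A549 and 0.09 ± 0.12 (SD, n = 5) in H520, with adjusted p from edgeR of 9.03e-17 with own inputs and 2.08e-16 with the H520 input. The neighbour with G1C, outside the end, had 2.45 in A549, and the neighbour with C11G, inside it, 0.63. The same held for C10T in X3, Y1 and Y2, where A549 activity went from 2.28, 2.46 and 2.40 to 0.54, 0.44 and 0.40. In Z2 it went from 2.31 to pool level with G8A, but also to 0.64 with G1C, which lies outside the end. Over the 31 tags with CA, CT or TT, 30 neighbour pairs lost the end, and the neighbour was lower in A549 with own input in all 30 and under both denominators in 28. The A549 median went from 1.33 to 0.15. The 22 ordered pairs that kept the end also count each pair in both orders, so the neighbours' median of 1.60 is no comparison.

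Some held tags lay next to one another in sequence. A tag 1 letter away was also held H520-higher for 34 of the 268, or 12.7%, against 0.463% of all members, and 31 of the 34 hold TTGCGT. For the A549-higher tags it was 14 of 473, or 2.96%, against 0.800% of all members. A neighbour of any kind was present for 97.9% of members. GC content of the variable bases averaged 45.9% in A549-higher and 49.7% in H520-higher tags, beside 47.7% in all members.

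Other motifs were looked for on both strands of the 12 variable bases. TGANTCA, where N is any base, was in 132 members, of which 1 was held higher in A549 and 0 in H520. TGACTCA, the form that is a site of AP-1, was in 95 members, and its reverse complement TGAGTCA in 0. Of the 95, 1 was held higher in A549, or 1.05%, against 0.224% of all members, and 0 in H520. That share rests on 1 tag. TGACGTCA, the full CRE site, GCGTG, the core bound by the aryl hydrocarbon receptor, and AATAAA, the polyadenylation signal, were in 0 of 211385 members, so these letters gave no value.

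The BaP libraries of the same lines were not used in any call, though they share the inputs and the pool. Each carries the transfection number of a DMSO library of its line. The labels do not say whether the arms were split from the same transfections, so they may not be separate ones. Side by side with DMSO, P1 differed by 5.40 under BaP against 5.49 under DMSO with own inputs, R1 by -2.04 against -1.90, and S1 by -1.82 against -1.92. The 86 tags with TTGCGTCA had a median difference of -1.15 under BaP and -1.04 under DMSO with the H520 input. For the 31 tags with CA, CT or TT before TGCCCGGGC it was 1.55 under BaP and 1.59 under DMSO. The direction of each of these 5 values was thus the same in both arms.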

How the data were processed

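Short stretches holding the tag of each luciferase reporter were amplified from cDNA of poly(A)-selected RNA and from construct DNA, per the labels' protocols. Only bcl2fastq, with no version, is named in the submitters' processing notes, and the matching of reads to tags was not stated there. The authors deposited, per the file headers, a raw count per tag, the library total and TPM, which equals the count divided by that total, rescaled to parts per M. No molecular identifiers are named, so counts are not independent molecules.

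Tags were joined across the 22 libraries. The 5 A549 and 5 H520 DMSO libraries were fitted with edgeR 4.0.16 (glmQLFit, robust, and glmTreat at 2-fold), with input TPM plus 0.5 and the library median of activity as offsets, and Benjamini-Hochberg adjustment over the 222578 tags with at least 10 counts in both inputs that passed edgeR's expression filter. A common input cancels from the line difference. All p-values are two-sided. Tested on simulated data for the own-input fit, 91.5% of 3-fold and 98.5% of 4-fold changes were called over 222537 tags. These counts were drawn independently with the inputs taken as exact. Neither input error nor a low transfection shared across tags was simulated, so recovery in the real data can be lower.

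Tags were named by a rule: at least 500 counts in both inputs, the top 4 held tags of each of 4 groups by the smaller difference, the top 2 called under 1 denominator only in each direction, and the top 3 active in both lines with no call. W, X, Y and Z tags were chosen after their values were seen. The members, lists and tests were chosen with earlier results of these data known. The labels do not say that equal transfection numbers in the lines share a day or batch, so they were not treated as pairs. Deviations of equal numbers had r from -0.101 to -0.008 between lines in 5 pairs, and those of different numbers from -0.1 to 0.129. Alternatives were other input minimums, pseudocounts, fold thresholds and scalings, limma 3.58.1, DESeq2 1.42.0, a replicate block and leaving out each transfection.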

Additional observations from a re-analysis of the deposited data

Results flagged for a closer look

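Among 95 groups of 5 transfections searched, 6 held a transfection far from the other 4, where chance gives about 5% of groups. Tag S2 stood at 1.63 in A549 transfection 2, with the others at 1.45 to 1.49. Tag V2 stood at 3.90 in A549 transfection 5, with the others at 4.09 to 4.13. W4 was at 1.13 in A549 transfection 1, against 1.001 to 1.034, and W7 at 2.15 in A549 transfection 3, against 1.78 to 1.87. Y1 was at 0.11 in H520 transfection 5, against -0.09 to -0.05. These are log2 activities with own inputs. The share of active members in A549 with the H520 input was 1.64% in transfection 2, against 1.87% to 1.96% in the others.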

How the results depend on the processing

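The active shares of the lines did not overlap at other pseudocounts, at other input minimums or on leaving out 1 transfection. Among single tags, changes of sign were looked for only in the 27 named ones. The settings were other pseudocounts, no centring, a replicate block and leaving out transfections. No called difference of these tags changed sign. Differences near 0 in tags without a call did: V1 with own inputs went from -0.12 to 0.11 and V2 from 0.02 to -0.005 at a pseudocount of 2, V2 to -0.10 without centring, and V3 with the H520 input from 0.01 to -0.02 and -0.11 in the same settings. On leaving out 1 transfection, V1 with own inputs reached 0.06, V2 with own inputs -0.0054 and V3 with the H520 input -0.017. In the order own inputs A549-higher and H520-higher, H520 input A549-higher and H520-higher, then held A549-higher and H520-higher, the main counts were 507, 320, 1469, 1001, 473 and 268. Against 1.5-fold they were 2480, 1414, 6397, 7014, 2106 and 1153, and with no fold threshold 44305, 53616, 59913, 68014, 30594 and 36280. The excess of A549-higher over H520-higher calls thus reversed with no fold threshold in all 3 sets, and at 1.5-fold with the H520 input. An input minimum of 10 gave 558, 1820 and 505 for the H520-higher counts of the own-input, H520-input and held calls, and a minimum of 500 gave 401 H520-higher calls with the H520 input. With limma the own-input H520-higher count was 96, the H520-input counts 966 and 225, and the held H520-higher count 78. A pseudocount of 2 held 431 H520-higher tags. Without centring, added after seeing the data, the H520-input counts were 1224 and 1627, again a reversed excess, and the median of all tags moved by -0.12 with own inputs and -0.13 with the H520 input. Without A549 transfections 2 and 3, also added, 1798 were called A549-higher with own inputs, 2310 with the H520 input and 1672 held. With a replicate block the counts were 465, 300, 925, 941, 417 and 253, so that the H520-input excess also reversed, and 383 and 246 of the main held tags kept their calls. The Q tags lost their own-input calls under the block, with adjusted p from edgeR of 0.362 to 0.544, and Q1, Q2 and Q3 also their H520-input calls, at 0.0619, 0.0617 and 0.0508. At a pseudocount of 0.1, Q1 and Q3 lost their own-input calls, at 0.0587 and 0.0648. DESeq2 gave 672, 271, 1425, 791, 615 and 227. Leaving out 1 transfection each gave 389 to 981, 273 to 351, 1049 to 1804, 857 to 1134, 360 to 896 and 232 to 298, the highest own-input and held A549-higher counts coming without A549 transfection 2.

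The A549 active share was 1.85% with own input at a pseudocount of 0.1, 1.15% at 2 and 1.67% at an input minimum of 500. With the H520 input it was 2.65% and 1.21% at those pseudocounts. The H520 share was 1.21%, 0.780% and 1.14% in the same 3 settings. Held H520-higher tags with TTGCGTCA numbered 55 at 1.5-fold, 77 with no fold and 13 with limma, and held tags ending in TGCCCGGGC numbered 42 with no fold. The number of inputs, 1 per line, limits every difference, and its error could not be estimated.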
